A study of Rattus norvegicus with 9 samples.

Results

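Vip, Gal, Nts and Adcyap1 encode the precursors of 4 neuropeptides: vasoactive intestinal peptide, galanin, neurotensin and pituitary adenylate cyclase-activating peptide (PACAP). They were taken by symbol from a table of 30446 genes measured in rat dorsal root ganglia, the paired clusters that hold the cell bodies of sensory neurons and their glia. Each symbol stood for 1 identifier, and all 4 genes passed the low-count filter that left 16627 genes for testing. The 9 libraries, all from male Sprague-Dawley rats, form 3 groups of 3. One group was naive, one had sham surgery, and one had an injury of the spinal cord (SCI). All groups, naive included, carry the label of 30 days, and in all of them the ganglia of both sides from the 2 lowest thoracic levels through the last lumbar level were collected. The labels give neither the level and kind of the cord injury nor what the sham operation involved. The series text calls the 3 samples of a group biological replicates, without saying whether each is 1 animal or a pool. The ganglia were thus whole tissue, in which fewer cells of a type and less RNA per cell cannot be told apart.

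Neuropeptides are cut from larger precursors in dense-core vesicles and act on G protein-coupled receptors. VIP and PACAP belong to one peptide family and share receptors, while galanin and neurotensin have receptors of their own. In sensory ganglia, VIP and galanin are scarce in intact animals and known to be induced when the peripheral axon of the neuron is cut. PACAP is found in peptidergic nociceptors. Galanin is studied as a modulator of pain transmission in the dorsal horn, and neurotensin as a peptide with analgesic action in the central nervous system. An injury confined to the cord leaves the peripheral axons of these ganglia uncut, whereas it can cut their central branches that ascend in the cord. The levels of these genes thus bear on how far a central injury resembles a peripheral one. Whether the operations here also reached peripheral axons is not given by the labels.

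The 250 bases before the annotated start of Vip, Gal and Nts are shown because these 3 genes lay higher in SCI than in naive ganglia and because the cAMP response element (CRE) of such genes is much studied. They are RefSeq sequences of build GRCr8, at chr1:44470230-44470479 on the plus strand for Vip, chr1:210084573-210084822 on the minus strand for Gal and chr7:39460889-39461138 on the minus strand for Nts. They read 5′ to 3′ toward the gene, and capitals mark matches to the motifs named next.

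Vip: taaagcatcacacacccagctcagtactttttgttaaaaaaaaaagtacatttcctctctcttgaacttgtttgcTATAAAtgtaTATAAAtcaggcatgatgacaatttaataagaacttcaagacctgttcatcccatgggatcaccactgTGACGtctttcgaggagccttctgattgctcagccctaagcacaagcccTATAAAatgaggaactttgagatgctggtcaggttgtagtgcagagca

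Gal: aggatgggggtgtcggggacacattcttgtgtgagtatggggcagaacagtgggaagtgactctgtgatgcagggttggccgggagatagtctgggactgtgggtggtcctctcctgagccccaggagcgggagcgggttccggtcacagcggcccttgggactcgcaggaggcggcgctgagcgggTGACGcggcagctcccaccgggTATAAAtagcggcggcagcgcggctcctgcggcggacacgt

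Nts: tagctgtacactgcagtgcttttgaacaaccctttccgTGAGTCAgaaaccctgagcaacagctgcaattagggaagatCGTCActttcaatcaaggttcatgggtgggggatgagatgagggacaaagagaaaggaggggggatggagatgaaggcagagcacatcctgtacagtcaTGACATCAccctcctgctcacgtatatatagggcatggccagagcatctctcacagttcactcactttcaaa

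Motifs were searched on both strands in the same 250 bases of 33469 promoters. The full CRE, TGACGTCA, occurred in 1.59% of all promoters and in none of the 4 genes. Its shorter form TGACG, which every full CRE contains, occurred in 18.2% of promoters and once each in Vip, Gal and Nts, 97, 63 and 171 bases before the start. The match in Nts lies on the opposite strand and reads CGTCA as printed. Nts also held the AP-1 motif TGANTCA (6.34% of promoters) at 212 bases, and the CRE-like TGACATCA (3.8%) at 72 bases before the start. TATAAA, the TATA box motif, occurred in 12.9% of promoters. Vip held 3 matches to it and Gal 1, the nearest ones 48 and 41 bases before the start. The STAT motif TTCNNNGAA (7.67%) was not among these letters in any of the 4 genes. The Vip window lies almost wholly inside the span that RefSeq gives the gene (chr1:44470232-44478561), so it may hold transcribed bases. The start used for Vip is therefore not the first base of that span. Positions before the start are counted back from the end of each window. That of Adcyap1 also lies inside the gene, and its sequence is not shown. The window held 1 TATAAA, 248 bases before the start, and no other motif of those searched.

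Library totals ran from 16724878 to 32060538 counts. On the leading principal component, with 59.3% of the variance in log2 CPM, the naive libraries stood apart from sham and SCI, and the labels give no batch. A difference from naive can therefore not be told apart from a batch that holds the naive libraries alone. The sham libraries differed most among themselves, with a chi-square per gene of 13.3 to 41.8 between sham libraries against 3.15 to 7.997 between SCI libraries. The tissue label was checked with 16 sensory neuron markers, all of which were tested. Their summed level was 32780 to 34328 CPM in naive and 35774 to 36306 CPM in SCI libraries, but 46822, 36467 and 31857 CPM in sham 1, 2 and 3. A level in CPM is a count relative to the scaled size of its library, and a group is given as mean ± SD with n = 3.

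Vip showed the widest differences of the 4 genes. Its level was 0.543, 0.472 and 0.225 CPM in naive 1 to 3, 0.845, 1.79 and 0.645 CPM in sham 1 to 3, and 3.68, 3.41 and 2.55 CPM in SCI 1 to 3. The SCI libraries lay above every sham library and the sham libraries above every naive library, with sham 2 nearest to SCI. These levels rest on 7 to 15 reads in naive, 13 to 30 in sham and 56 to 119 in SCI libraries. Counting error alone would give a coefficient of variation of 29.8% in naive, 22.3% in sham and 11.5% in SCI, and the measured ones were 40.4%, 55.8% and 18.4%. By exact Poisson intervals at 95%, which cover counting error only, sham 2 allowed 1.20 to 2.55 CPM and SCI 3 allowed 1.92 to 3.31 CPM, so these neighbouring libraries were not separated by their counts. Nor were sham 3, which allowed 0.343 to 1.10 CPM, and naive 1, which allowed 0.304 to 0.895 CPM.

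**Figure D1:**
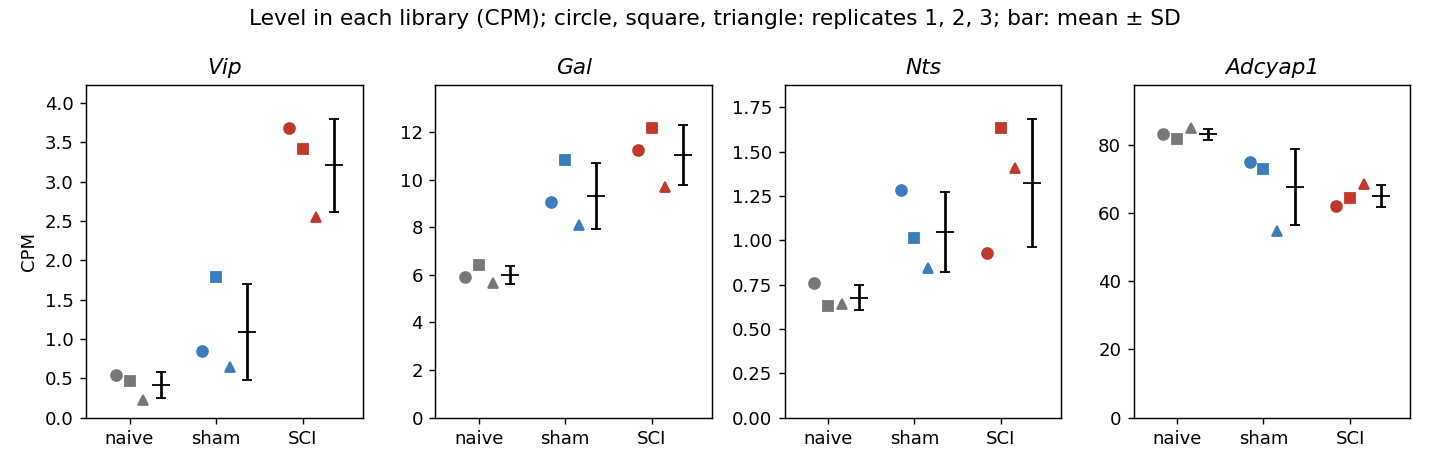
Level of Vip, Gal, Nts and Adcyap1 in CPM (vertical axes, each from 0) in the naive, sham and SCI libraries, with symbols for replicates 1 to 3 and a bar for mean ± SD (n = 3). Vip in SCI (2.55 to 3.68 CPM) lies above all other libraries, while Adcyap1 is highest in the naive libraries (81.6 to 84.8 CPM).

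Gal had 5.90, 6.42 and 5.65 CPM in naive 1 to 3, 9.07, 10.8 and 8.09 CPM in sham 1 to 3, and 11.3, 12.2 and 9.69 CPM in SCI 1 to 3. All sham and SCI libraries lay above the naive ones, and SCI 3 lay below sham 2. Galanin transcripts were counted with 163 to 364 reads per library. Within sham and SCI their coefficients of variation of 14.9% and 11.3% lay above the 7.20% and 6.16% of counting error, while the naive 6.55% lay below the 7.46% expected.

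Nts was near the limit of what these libraries resolve, at 17 to 35 reads in every one. It had 0.760, 0.630 and 0.642 CPM in naive 1 to 3, 1.29, 1.01 and 0.843 CPM in sham 1 to 3, and 0.927, 1.63 and 1.41 CPM in SCI 1 to 3. Sham and SCI libraries overlapped, and both groups lay above the naive libraries. In sham the coefficient of variation of 21.3% was no wider than the 21.8% of counting error. It was 10.6% against 22.2% from counting in naive, and 27.2% against 17.9% in SCI.

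Adcyap1 was well covered, with 1103 to 2640 reads per library, and its order of groups was the opposite one. PACAP transcripts stood at 83.0, 81.6 and 84.8 CPM in naive 1 to 3, 74.8, 73.0 and 54.7 CPM in sham 1 to 3, and 62.0, 64.5 and 68.5 CPM in SCI 1 to 3. Every naive library lay above every sham and SCI library, and the sham libraries spanned the SCI range on both sides. Sham 3, the lowest, was also the sham library with the lowest summed neuron markers, and the part of this in its level was not tested. The coefficient of variation was 16.5% in sham against 2.69% from counting, and 1.93% against 2.00% in naive.

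The comparison of SCI with sham asks what the cord injury adds to the operation. Mean Vip was 3.21 ± 0.591 CPM after SCI beside 1.09 ± 0.609 CPM after sham surgery, a 3.09-fold difference (log2 change 1.63, SE 0.31, 95% interval 0.96 to 2.29) that did not pass in edgeR's quasi-likelihood test with Benjamini-Hochberg adjustment (adjusted p = 0.442). None of the 4 genes passed, and the share over all genes tested was also 0%. By unadjusted p Vip ranked number 3 of 16627 genes, and by size of an upward change number 9. At an unadjusted p under 0.05 stood 1 of the 4, against 3.16% of all genes, 1 of the 4 had SCI libraries all above sham, against 3.3%, and 0 of the 4 had them all below, against 3.11%. DESeq2 called Vip (log2 change 1.59, adjusted p = 0.0195), with 0.0541% of all genes called. EdgeR without a low-count filter called it as well (log2 change 1.63, adjusted p = 0.00473), with 0.0452% of all genes called. Limma-voom and all other alternatives did not.

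For Gal, Nts and Adcyap1 the differences between SCI and sham were small and did not pass. Mean Gal was 11.03 ± 1.25 CPM after SCI and 9.33 ± 1.39 CPM after sham surgery, with a log2 change of 0.25 (SE 0.13), and its 95% interval ran from -0.025 to 0.52. Nts was at 1.32 ± 0.360 and 1.05 ± 0.223 CPM, a log2 change of 0.27 (SE 0.26), and the interval of -0.30 to 0.83 leaves room for changes in either direction. Adcyap1 stood at 65.0 ± 3.29 and 67.5 ± 11.1 CPM, with a log2 change of -0.056 (SE 0.098) and an interval of -0.27 to 0.16. All 3 had an edgeR adjusted p of 0.9999. Without sham 1 the Adcyap1 change was 0.027.

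**Figure D2:**
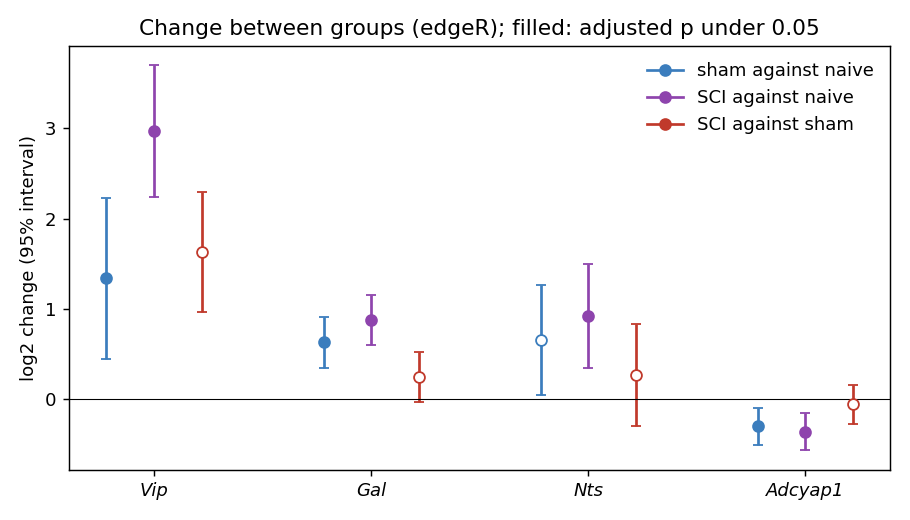
Log2 change of each gene (vertical axis, with 95% interval) in sham against naive, SCI against naive and SCI against sham, from edgeR over all 9 libraries; filled points passed an adjusted p of 0.05. Vip, Gal and Nts lie above 0 throughout and Adcyap1 below, and no point of SCI against sham is filled.

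Whether Vip differed more between SCI and sham than the other 3 genes was tested within each library, as the log2 CPM of Vip minus that of the other gene. The difference from Gal was -1.59, -1.81 and -1.90 in SCI 1 to 3 and -3.31, -2.55 and -3.50 in sham 1 to 3. Relative to Gal, then, Vip was higher in each SCI library than in any sham library, by 1.35 on average. Relative to Nts and Adcyap1 the mean difference between SCI and sham was 1.30 and 1.64, also without overlap between SCI and sham. All 3 differences use the same Vip values, so they are not independent of one another. For Nts the gap was narrow, with SCI 3 at 0.819 and sham 2 at 0.774, and Nts had 31 and 17 reads in these libraries. With 3 libraries against 3, the two-sided exact permutation test gave p = 0.1 for each of the 3 pairs (0.1 after adjustment over 3), the smallest p that 20 divisions allow. The test could thus not pass at this size.

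**Figure D3:**
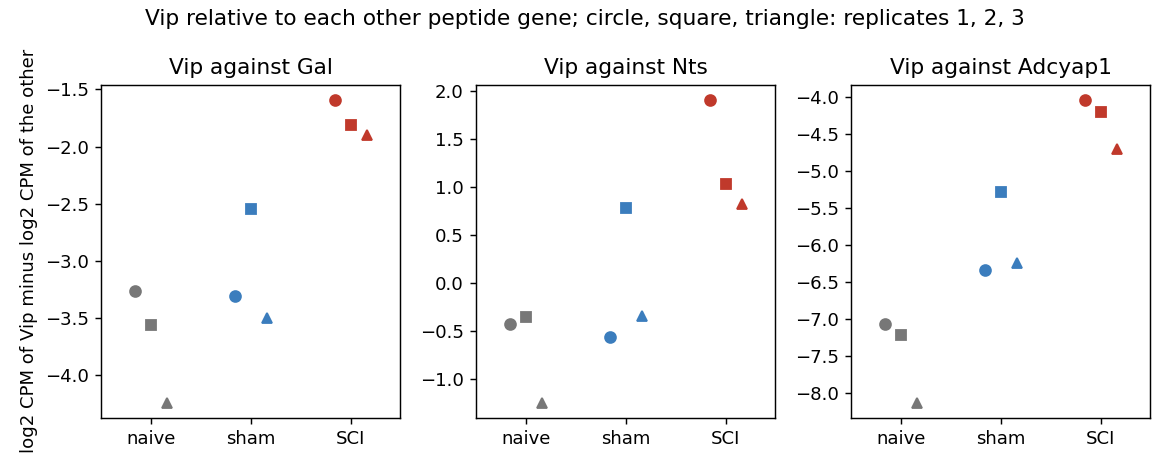
Log2 CPM of Vip minus log2 CPM of Gal, Nts or Adcyap1 (vertical axes) in each naive, sham and SCI library, with symbols for replicates 1 to 3. In all 3 panels the SCI libraries lie above the sham libraries, with sham 2 the nearest of these (-2.55 relative to Gal, where SCI 3 is at -1.90). Relative to Nts they nearly meet, with sham 2 at 0.774 and SCI 3 at 0.819.

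Against naive ganglia, all 4 genes passed in SCI, with 3 higher and 1 lower, but so did 48.5% of all genes tested (23.9% higher, 24.6% lower). Vip rose 7.82-fold, with 0.413 ± 0.167 CPM in naive ganglia (log2 change 2.97, SE 0.34, edgeR adjusted p = 1.61e-05). This upward change ranked number 8 of all 16627 genes. The SCI libraries of Vip, Gal and Nts lay all above naive, as did those of 32.2% of genes, and those of Adcyap1 all below, as did 31.9%. Gal had 5.99 ± 0.393 CPM in naive and rose 1.84-fold (log2 change 0.88, SE 0.13, edgeR adjusted p = 0.000104). Nts rose 1.90-fold from 0.677 ± 0.0718 CPM (log2 change 0.92, SE 0.27, edgeR adjusted p = 0.0113), and without SCI 2 the change of 0.76 no longer passed (adjusted p = 0.0549). Adcyap1 had 83.1 ± 1.61 CPM in naive and fell to 65.0 ± 3.29 in SCI (edgeR log2 change -0.36, SE 0.097, adjusted p = 0.00826).

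Sham ganglia differed from naive ones in the same directions, and 3 of the 4 genes passed, where 50.6% of all genes did (24.7% higher, 25.9% lower). This comparison shares the naive libraries with the one before it. Vip rose 2.53-fold (log2 change 1.34, SE 0.41, edgeR adjusted p = 0.0156). Its call was lost without naive 3 (log2 change 1.03, adjusted p = 0.0664) and without sham 2 (0.88, adjusted p = 0.0862). Gal rose 1.55-fold (log2 change 0.63, SE 0.13, edgeR adjusted p = 0.00129). Adcyap1 fell (log2 change -0.30, SE 0.097, edgeR adjusted p = 0.0199), a call lost without naive 1 or naive 3 (adjusted p = 0.0556 and 0.0582). Nts missed the threshold at a log2 change of 0.66 (SE 0.28, edgeR adjusted p = 0.0669). In this comparison too Vip, Gal and Nts lay wholly above naive (27.5% of all genes) and Adcyap1 wholly below (29.2%). For Gal the larger step was thus the one from naive to sham, 0.63, beside 0.25 from sham to SCI, whereas for Vip the steps were 1.34 and 1.63. The difference between these steps was not tested.

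Set against the mean of both control groups, Vip and Gal rose in SCI, 2 of 4 genes where 16.9% of all genes passed (7.91% higher, 9.02% lower). Vip had a log2 change of 2.30 (SE 0.26, edgeR adjusted p = 0.000393), which ranked number 5 among upward changes. Its SCI libraries lay above all 6 control libraries, which held for 0.764% of genes, and none of the 4 lay below all 6, as 0.65% of genes did. Gal rose by 0.56 on the log2 scale (SE 0.11, edgeR adjusted p = 0.00485), and SCI 3 overlapped with sham 2. This comparison gives naive and sham equal weight, so a difference from naive, or a batch of the naive libraries, enters it. For Gal the log2 change was 0.88 against naive alone and 0.25 against sham alone, where it did not pass (edgeR adjusted p = 0.9999). Against sham alone 0% of all genes passed. Nts and Adcyap1, at 0.60 and -0.21, did not pass (edgeR adjusted p = 0.0863 and 0.114). A test for any difference among the 3 groups called all 4 genes, at edgeR adjusted p from 2.71e-05 for Vip to 0.0283 for Nts, where 48.5% of all genes were called.

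The levels were also set against the 16 sensory neuron markers, a sum made up mostly of the neurofilaments Nefm (7976 CPM in naive), Nefl (7961) and Nefh (5374). Members of that list did not move together: between SCI and naive Uchl1 (0.41) and Prph (0.35) rose, while the sodium channels Scn9a, Scn11a and Scn10a fell by 1.47, 0.97 and 0.55 on the log2 scale. Per 10000 counts of the 16 sensory neuron markers there were 0.0677 to 0.166 Vip counts in naive, 0.180 to 0.490 in sham and 0.707 to 1.03 in SCI libraries, with no overlap between any groups. The naive and sham ranges rest on 7 to 15 and 13 to 30 Vip reads. Gal had 1.70 to 1.87, 1.94 to 2.97 and 2.69 to 3.35 such counts, so that sham and SCI again overlapped. Nts had 0.183 to 0.232, 0.265 to 0.277 and 0.259 to 0.449, with the same overlap. Adcyap1 had 23.8 to 25.5 in naive, 15.98 to 20.01 in sham and 17.3 to 19.0 in SCI, which leaves the naive libraries apart.

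Markers of other cells that the dissection could hold were compared with these levels. Of 10 markers of sympathetic neurons, which also use VIP and galanin, Hand2 had 3 or fewer counts in every library. The summed level of the 10 was 111 to 121 CPM in naive, 80.4 to 102 in sham and 81.7 to 96.2 in SCI, a sum that is nearly all Chrna3 (108, 88.2 and 80.5 CPM in the 3 groups). Th, the rate-limiting enzyme of catecholamine synthesis, had 1.16 CPM in naive and 1.93 CPM in SCI ganglia and was the only one of the 8 tested to rise there (log2 change 0.75, edgeR adjusted p = 0.00566). Another 4 fell, among them Dbh by 1.83 and Slc6a2 by 0.77, both used by noradrenergic neurons. Dbh was near the floor, at 0.638 CPM in naive and 0.178 CPM in SCI, with 4 or 5 reads in each SCI library. Of all genes, 23.9% were higher and 24.6% lower in that comparison. Of 9 spinal cord markers, Olig2 and Slc32a1 had 3 or fewer counts throughout. Their sum was 11.5 to 12.4 CPM in naive, 8.60 to 9.13 in sham and 10.2 to 10.9 in SCI, so it was higher in SCI than in sham but highest in naive. Skeletal muscle markers were at 64.9 to 102 CPM in SCI and 139 to 159 in sham, without overlap, and at 65.6 to 107 in naive. All 11 tested ones had a negative log2 change in SCI against sham (median -0.98, 0 of 11 passing). Macrophage markers stood at 198 to 229 CPM in naive, 227 to 364 in sham and 278 to 288 in SCI, and lymphocyte markers, of cells that can also make VIP, at 21.1 to 26.6, 28.8 to 44.8 and 35.7 to 37.0. Mast cell markers stood at 6.23 to 8.55, 3.20 to 5.65 and 2.37 to 3.93 CPM in the same order. The sum of 10 Schwann cell markers was highest in naive, at 30300 to 32036 CPM in naive, 17709 to 22117 in sham and 19182 to 23324 in SCI. Of these 10, 8 were lower and 1 higher in SCI than in naive, where 24.6% of all genes were lower and 23.9% higher. The counts were the same in sham against naive, beside 25.9% and 24.7% of all genes. What part these cells have in the peptide levels was not tested.

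Of 9 receptor genes for these peptides 7 were tested, and none changed by as much as 0.5 on the log2 scale in any comparison. Vipr1, a receptor for VIP and PACAP, had 0 to 3 counts per library and Galr3 0 to 2. Between SCI and sham none of the 7 passed, with a median log2 change of 0.0050 and a range of -0.070 to 0.18, beside a median of -0.00078 over all genes. Between SCI and naive 2 were higher and 2 lower, 4 of 7 where 48.5% of all genes passed. Ntsr1, the high-affinity neurotensin receptor, rose from 5.73 ± 0.0312 to 7.94 ± 1.12 CPM (log2 change 0.46, edgeR adjusted p = 0.0161). Galr2, a galanin receptor, rose from 5.75 ± 0.628 to 7.49 ± 0.881 CPM (log2 change 0.37, edgeR adjusted p = 0.0273). The PACAP receptor Adcyap1r1 fell from 5.61 ± 0.284 to 4.40 ± 0.429 CPM (log2 change -0.35, edgeR adjusted p = 0.0295). Sort1, the sorting receptor sortilin that also binds neurotensin, fell from 160 ± 5.47 to 137 ± 3.72 CPM (log2 change -0.23, edgeR adjusted p = 0.0156). Galr1 (-0.34), Vipr2 (-0.11) and Ntsr2 (-0.093) did not pass in that comparison. Of these calls, Ntsr1 (0.37) and Sort1 (-0.23) also passed in sham against naive, where 50.6% of all genes did.

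Among 19 tested precursors of other neuropeptides, none passed between SCI and sham. The one with the smallest p, Nppb, which encodes a peptide of itch neurons, had means of 1.44 ± 0.386 CPM after SCI and 0.770 ± 0.223 CPM after sham surgery (log2 change 0.84, SE 0.30), and Nmb, neuromedin B, had a log2 change of -0.17 (SE 0.068). The median of the 19 was -0.049. Between SCI and naive 8 were higher, 1 was lower and 10 did not pass, with a median of 0.15 beside 0.011 over all genes. That is 9 of 19 called, where 48.5% of all genes were (23.9% higher, 24.6% lower). Nmb rose by 0.55, Penk, the enkephalin precursor, by 0.71, and Sst, somatostatin, by 0.59 on the log2 scale, while Cartpt fell by 0.63. Sham against naive gave 0.72, 0.80 and 0.69 for Nmb, Penk and Sst and -0.44 for Cartpt, all passing. Against both control groups Nppb (0.88) and Nmb (0.19) were higher and Cartpt (-0.41) lower, 3 of 19 where 16.9% of all genes passed. Npy, another peptide known for induction after axotomy, is listed at 0 in every library, as is Pcsk1n, a gene that neurons widely use. Whether these zeros come from the counting or from absence of the transcripts was not tested, so they do not show that Npy was not induced.

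**Figure D4:**
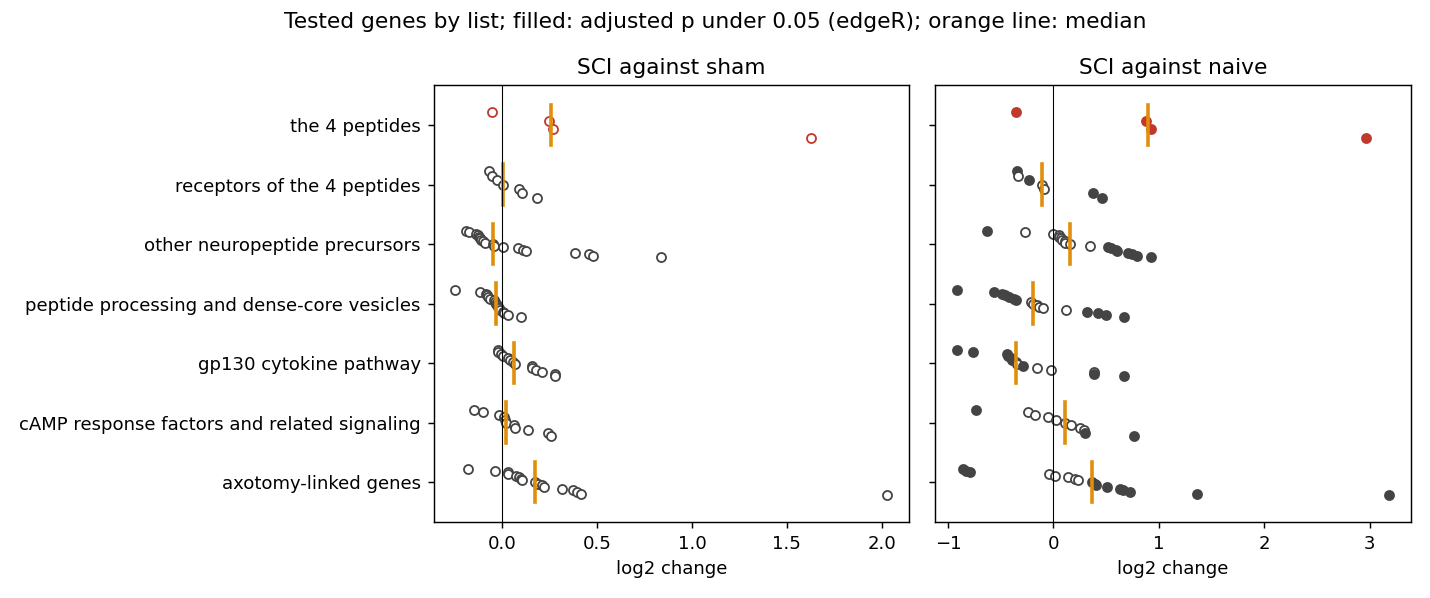
Log2 change (horizontal axes) of the 4 peptide genes and of the tested members of 6 lists in SCI against sham (left) and SCI against naive (right); each point is a gene, filled where the edgeR adjusted p was under 0.05, and the orange line is the list's median. Vip at 1.63 and Reg3b at 2.03 lie far from the other genes on the left, where no point is filled.

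Of 17 tested genes for peptide processing and dense-core vesicles, 4 were higher and 7 lower in SCI than in naive (median log2 change -0.20), where 23.9% of all genes were higher and 24.6% lower, and none passed between SCI and sham (median -0.035, with Qpct at -0.25 and Scg5 at -0.12 having the smallest p). The granins Chga and Chgb, proteins of the vesicle core, rose by 0.67 and 0.42, and the convertase Furin by 0.50. The carboxypeptidase Cpd fell by 0.91, the convertase Pcsk1 by 0.56 and Pam, which amidates peptides such as VIP and PACAP, by 0.35. In sham against naive Chga (0.72), Furin (0.54) and Scg5 (0.44) were higher, and Cpd (-1.01), Pcsk1 (-0.57) and Pam (-0.36) lower, 4 and 6 genes of the list in all, beside 24.7% and 25.9% of all genes. Against both control groups Chga (0.31) and Furin (0.23) were higher, and Cpd (-0.41), Pcsk1 (-0.28) and Cadps2 (-0.23) were among 5 that were lower, beside 7.91% and 9.02% of all genes.

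Cytokines that signal through gp130, such as leukemia inhibitory factor, are known to induce VIP and galanin in axotomized neurons. Of 14 tested genes of this pathway, 2 were higher and 8 lower in SCI than in naive (median log2 change -0.35), where 23.9% of all genes were higher and 24.6% lower. None passed between SCI and sham (median 0.064), where Socs3 (0.28) and Osmr (0.21) had the smallest p. Socs3, a feedback inhibitor induced by the pathway, rose by 0.67 and Cntfr by 0.38. Cntf fell by 0.77, Lifr by 0.92 and Il6st, which encodes gp130, by 0.44. In sham against naive 2 were higher and 8 lower as well, beside 24.7% and 25.9% of all genes, with Cntfr at 0.41, Socs3 at 0.39, Cntf at -0.81, Lifr at -0.99 and Il6st at -0.50. Against both control groups Socs3 was at 0.47, Cntf at -0.36, Lifr at -0.42 and Il6st at -0.19, all of which passed, 4 of 14 where 16.9% of all genes did.

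Of 11 genes in a list of cAMP response factors and related signaling, none passed between SCI and sham (median 0.020), with Atf1 at 0.26 and Creb1 at 0.24. Between SCI and naive Crtc2, a coactivator of CREB, rose by 0.30 and Crebbp, another coactivator, fell by 0.74, 2 of the 3 that passed where 48.5% of all genes did. Sham against naive gave 0.23 for Crtc2, -0.75 for Crebbp and -0.50 for Atf1, all passing. Crebbp was the only one of the 11 to pass against both control groups (-0.36).

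Of 17 tested genes linked to axotomy, none passed between SCI and sham, while 15 of 17 had a positive log2 change (median 0.17), against 8259 of 16627 genes. Reg3b, a secreted lectin, was at 2.03 (SE 0.62) and Stmn4, a stathmin, at 0.19 (SE 0.081). The size of the Reg3b change came mostly from SCI 3, with 40, 40 and 191 reads in SCI 1 to 3. Its level ran from 1.24 to 8.69 CPM in SCI and from 0.655 to 1.21 CPM in sham libraries. Between SCI and naive 9 rose and 3 fell (median 0.36), where 23.9% of all genes were higher and 24.6% lower. Stmn4 rose by 0.73, Gadd45a by 0.40 and Gap43, a growth cone protein, by 0.36, while Flrt3, Klf6 and Cacna2d1 fell by 0.83, 0.79 and 0.85. Atf3, the transcription factor commonly used to mark injured sensory neurons, rose from 15.1 to 21.4 CPM with 18.7 CPM in sham (log2 change against naive 0.50, edgeR adjusted p = 0.00334). Sham against naive called 6 higher, among them Hspb1 (0.59), Stmn4 (0.54) and Gap43 (0.40), and 3 lower, which were Flrt3 (-0.94), Klf6 (-1.01) and Cacna2d1 (-0.95), beside 24.7% and 25.9% of all genes. Against both control groups Reg3b (2.61), Stmn4 (0.46) and Gadd45a (0.21) were among 5 higher, and Flrt3 (-0.36) and Klf6 (-0.28) were lower, beside 7.91% and 9.02% of all genes.

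Among the 4 genes, the log2 CPM of Vip and Gal went together over the 9 libraries, with a Pearson r of 0.931. That of Gal with Nts was 0.805 and of Vip with Nts 0.761, while Adcyap1 had r of -0.571 with Vip, -0.649 with Gal and -0.432 with Nts. These are descriptions of 9 libraries that share their group structure and scaling. Of the other tested genes with a standard symbol, those with the highest r with Vip were Pde6b (0.990), Cdc45 (0.966) and Crisp3 (0.947). Crisp3 was near the floor, at 0.0105 CPM in naive, 0.192 in sham and 0.713 in SCI. Pde6b stood at 0.534 ± 0.159 CPM in naive, 0.841 ± 0.251 in sham and 1.49 ± 0.205 in SCI. Within the 6 sham and SCI libraries the nearest to Vip were Pde6b (0.985), Poc5 (0.984) and Tmtc3 (0.983), the last of which was lower in SCI than in naive. For Gal they were Csrp3 (0.983), Ccdc159 (0.964) and Stac2 (0.960), and for Adcyap1 Kcnab1 (0.990), Lipa (0.989) and Metap1 (0.987). For Nts they included Pfkfb4 (0.960) and its receptor gene Ntsr1 (0.946).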

How the data were processed

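For 9 libraries the authors deposited raw read counts by gene, as whole numbers. Per the labels' protocols, RNA was extracted with a column kit and libraries were made with a TruSeq kit that does not mark strand, so reads of overlapping antisense genes cannot be told apart. TopHat2, HTSeq, DESeq2, Trimmomatic and FastQC are named in the submitters' processing notes. No version, genome build or annotation was given in the sources used here.

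Counts were tested with edgeR 4.0.16 (R 4.3.3): quasi-likelihood test, TMM scaling, edgeR's own filter for low counts, a single fit of 3 group means to all 9 libraries, and Benjamini-Hochberg adjustment over all 16627 tested genes, with calls under 0.05. SE is the log2 change divided by the root of F. CPM used TMM-scaled library sizes, and log2 CPM a prior count of 2. P-values measure the spread between libraries, and totals of 16724878 to 32060538 counts limit genes near 1 CPM. Alternatives were DESeq2 1.42.0, limma-voom (limma 3.58.1), RLE and upper-quartile scaling, no filter or a CPM above 1 in 3 libraries, a fit of 2 groups alone, a block for replicate number, leaving out each library, and thinning to the shallowest total.

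The 4 genes and the 16 lists (202 entries, 196 matched by symbol, 171 tested) were chosen with earlier results of these data known. Named were all receptors, per list and comparison the 3 called genes in each direction with the smallest p (otherwise the 2 with the smallest p), and the 3 genes with the highest Pearson r with each peptide gene. For these correlations the 4 genes themselves and loci without a standard symbol were passed over. Atf3, Npy, Pcsk1n, single cell type markers and the level per neuron marker were chosen after values were seen. No gene length was used, so levels are not compared between genes. Vgf, Nms, Myh2, Myh4, Pecam1 and Slc18a3 were listed but not analysed here. Some genes that these rules would name are not reported here.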

Additional observations from a re-analysis of the deposited data

How the results depend on the processing

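The 28 results were recomputed under 399 alternative values, of which 376 kept their direction and their side of the threshold (counts within 1.5 times). These include the 3 results that set Vip against another peptide gene, with 7 alternatives each. Their permutation p was 0.1 to 0.2 and could not fall under 0.05 at this size, so only their direction could have changed. Between SCI and sham, Vip ranged from 1.39 to 2.09 over the alternatives (adjusted p from 0.00473 to 0.99998). It passed with DESeq2 (1.59) and without a low-count filter (1.63), and 1 of the 4 genes was then called in place of 0. Without sham 3, 22 of all genes passed there in place of 0 (0.131%), Vip not among them. Against both controls DESeq2 called 1 gene in place of 2, since it gave no adjusted p for Vip and Nts. With counts thinned to the shallowest library total, Nts passed in sham against naive (0.909, adjusted p = 0.0486). Leaving out 1 library moved Adcyap1 in SCI against sham between -0.191 and 0.027, with the sign reversed without sham 1. In sham against naive it moved Vip between 0.882 and 1.58, Adcyap1 between -0.392 and -0.162, and Nts between 0.439 and 0.800, with 1 to 4 genes called. Nts moved between 0.756 and 1.16 in SCI against naive and between 0.426 and 0.836 against both controls, and Adcyap1 there between -0.272 and -0.169, which passed without sham 3. The test for any difference called 2 to 4 genes. Among those most like each peptide gene, Spearman's rho kept 1 of 3 for Vip, Gal and Adcyap1 and 0 for Nts. The cause of these shifts was not tested. Libraries with the same replicate number were no more alike than others (9 same-numbered pairs, r from -0.0946 to 0.124, against -0.132 to 0.156 in the other pairs). The labels do not say what a replicate number shares. With replicate number as a block, Vip in SCI against sham was 1.64 (adjusted p = 0.428), and no call changed. Reads limit Vip and Nts most.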
